A study of Homo sapiens with 30 samples.

Results

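The unfolded protein response and endoplasmic reticulum (ER) folding set comprised 49 genes for ER sensors and their transcription factors, chaperones, disulfide enzymes, ER-associated degradation and protein translocation. Members were the rows of the LNCaP count table whose Ensembl identifier, without its version, belonged to a listed symbol, and each of the 49 matched 1 of 37843 rows. LNCaP is an established androgen-sensitive line from a prostate cancer metastasis. Cells in hormone-depleted serum received vehicle or R1881, a synthetic androgen, at 0.03, 0.06, 0.1 or 10 nM for 24 h, with 3 libraries per group numbered 2, 3 and 4. The labels do not say that the 3 came from separate cultures, so p-values measure the spread between these libraries, which may be technical. All groups are of the same line, and no group carries another agent or allele. VCaP libraries of the same series were not analysed here.

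The ER folds and glycosylates secreted and membrane proteins. When unfolded protein accumulates, the chaperone HSPA5 (BiP) leaves the sensors ERN1 (IRE1), EIF2AK3 (PERK) and ATF6. ERN1 splices the XBP1 messenger RNA, ATF6 is cleaved into a transcription factor, and EIF2AK3 slows translation while favouring that of ATF4. The first pair of arms raises chaperones, folding enzymes and degradation factors. Prostate luminal cells secrete large amounts of protein in response to androgen, and so draw on this machinery.

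Total counts ran from 30666460 to 61199483 per library. The 5 libraries numbered 3, 1 in each group, separated from the others along principal component 3, which took 5.33% of the variance, and had 9.31% to 10.7% mitochondrially encoded counts, against 6.14% to 7.69% in the rest. In every group they were the lowest in HSPA5, HSP90B1, MANF, CALR, PDIA4 and DERL2 and the highest in HERPUD1 and EDEM1. The count of members at 10 nM is also given without them.

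At 10 nM nearly the whole set stood above vehicle. Of 48 tested members 44 rose and 1 fell, against a background of 29.3% of 18403 tested genes called higher and 28.3% called lower (57.6% in either direction). The median log2 fold change of the members was 0.83, against -0.01 over all tested genes. The member that fell was ATF6B, and those not called were ATF6, OS9 and ERO1B. Without the 5 libraries numbered 3, 45 members were higher and 0 lower by edgeR, ATF6 joining those higher and ATF6B missing the threshold (adjusted p = 0.052). The largest rises were in the co-chaperone DNAJB9 (5.26-fold), the sensor ERN1 (4.41-fold), the disulfide isomerase PDIA5 (4.31-fold) and the mannosidase-like degradation factor EDEM3 (3.64-fold). Together the 49 members took 1.49% ± 0.0987 of all counts at 10 nM and 0.985% ± 0.0475 in vehicle (SD, n = 3 each). A gene was called when its two-sided edgeR quasi-likelihood test, adjusted by the Benjamini-Hochberg method over all tested genes, was under 0.05. The replicate number was not in this fit. With it as a block, 45 members were higher and 1 lower at 10 nM, beside 32.1% and 31.0% of all genes. CREB3L1, with 3 counts over all 15 libraries, was too low to test.

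Because HSPA5 and XBP1 are the textbook targets of ATF6 and the spliced XBP1 protein, the promoter sequences of the set are shown first. They are RefSeq windows of GRCh38.p14 from 250 bases before to 50 after each start, available for 46 of 49 members. DERL1, DERL3 and PDIA3 were not matched. Motifs were searched on both strands. The ER stress element (ERSE, the letters CCAAT, any 9 bases, then CCACG) was found in 9 members, or 19.6%, against 0.0916% of 27305 genes with a window. Its shorter form (ERSE-II, the letters ATTGG, any base, then CCACG) was found in 3 members, or 6.52%, against 0.0696%. The core of the XBP1-type element (UPRE, TGACGTGG) was found in 5 members, or 10.9%, against 0.927%. Both ERSE forms end in CCACG, with which the reverse complement of the UPRE core begins. HYOU1 has a pair of ERSE-II matches, and the match not printed below overlaps a UPRE core. The set was listed by its role in this response and holds its textbook targets. Shares above those of all genes therefore follow in part from that choice and are no separate evidence. A match is a description of the letters, not a shown binding site.

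The HSPA5 window is given whole and the others as the match with up to 15 bases on each side, written 5′ to 3′ on the gene's own strand. Capitals mark the ERSE in HSPA5, XBP1, HSP90B1 (with a pair of matches), PDIA6, CRELD2 and CALR, the ERSE-II in HERPUD1, SDF2L1 and HYOU1, and the UPRE core in SSR3 and DNAJC10. CALR, CRELD2, SDF2L1, HYOU1, SSR3, DNAJC10 and the second HSP90B1 window hold it as the reverse complement. Not printed are the ERSE of CANX, SERP1 and ERO1B, the other ERSE-II of HYOU1, and the UPRE core of HYOU1, SEC62 and SSR4.
HSPA5, chr9:125241294-125241593, minus strand: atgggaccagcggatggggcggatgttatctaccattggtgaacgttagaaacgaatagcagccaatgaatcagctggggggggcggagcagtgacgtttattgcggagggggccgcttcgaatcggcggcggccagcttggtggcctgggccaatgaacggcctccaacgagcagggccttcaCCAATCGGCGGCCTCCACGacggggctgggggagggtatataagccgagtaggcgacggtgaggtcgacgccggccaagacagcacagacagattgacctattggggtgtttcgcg
XBP1, chr22:28800588-28800636, minus strand: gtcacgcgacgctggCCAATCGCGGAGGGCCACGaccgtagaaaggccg
HSP90B1, chr12:103930201-103930249, plus strand: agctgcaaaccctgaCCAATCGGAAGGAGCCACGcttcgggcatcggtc
HSP90B1, chr12:103930306-103930354, plus strand: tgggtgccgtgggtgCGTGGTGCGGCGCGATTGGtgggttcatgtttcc
PDIA6, chr2:10812838-10812886, minus strand: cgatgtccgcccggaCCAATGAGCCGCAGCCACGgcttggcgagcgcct
CRELD2, chr22:49918539-49918587, plus strand: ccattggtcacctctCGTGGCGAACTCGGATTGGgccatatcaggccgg
CALR, chr19:12938369-12938417, plus strand: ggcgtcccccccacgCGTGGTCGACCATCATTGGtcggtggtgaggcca
HERPUD1, chr16:56932010-56932050, plus strand: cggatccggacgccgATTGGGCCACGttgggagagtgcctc
SDF2L1, chr22:21642099-21642139, plus strand: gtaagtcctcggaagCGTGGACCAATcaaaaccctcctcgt
HYOU1, chr11:119057259-119057299, minus strand: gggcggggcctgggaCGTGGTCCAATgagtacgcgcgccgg
SSR3, chr3:156554144-156554181, minus strand: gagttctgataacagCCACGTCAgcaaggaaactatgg
DNAJC10, chr2:182716117-182716154, plus strand: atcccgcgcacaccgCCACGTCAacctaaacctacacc

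Members with and without an ERSE of either form had median changes close to each other. The 12 members with a match had a median log2 fold change at 10 nM of 0.83 (11 called higher, range 0.066 to 1.305). ERO1B, which has an ERSE, was the member with a match that was not called. The 33 tested members whose window held no match had 0.88 (30 higher and 1 lower, range -0.20 to 2.40). Of all tested genes 29.3% were higher and 28.3% lower. Of the 5 members with a UPRE core, DNAJC10 and SSR3 rose by 1.44 and 1.56 on the log2 scale. HYOU1, SEC62 and SSR4 rose by 0.87, 0.42 and 0.36. The motif search covered these windows only and bears on no site outside them.

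The count of responding members grew with dose. At 0.03 nM 2 of 48 were higher and none lower (background 5.47% higher and 3.16% lower, 8.63% in all). For the 0 lower by edgeR, an unadjusted p under 0.05 would give 1 (EIF2AK3) and DESeq2 gave 0. With the replicate number as a block edgeR called 8 higher and 1 lower, beside 9.93% and 7.43% of all genes, and DESeq2 called 5 higher, beside 6.25%. The members' share higher was thus below that of all genes in the fit without the block and above it with the block or DESeq2, and at this dose it is given as no result about the set. The count of 2 became 4 without vehicle replicate 2 and 1 without vehicle replicate 3. At 0.06 nM 20 were higher and 5 lower (background 16.9% and 14.3%, 31.2% in all), the 5 becoming 3 without 0.06 nM replicate 2 or replicate 4. At 0.1 nM 32 were higher and 4 lower (background 21.5% and 20.6%, 42.1% in all). From 0.03 to 10 nM the members' median log2 change against vehicle was 0.06, 0.15, 0.28 and 0.83, and the number of members called at least 2-fold higher was 0, 2, 2 and 19 (background 0.636%, 1.95%, 3.28% and 6.15%). These comparisons share their vehicle libraries.

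**Figure D1:**
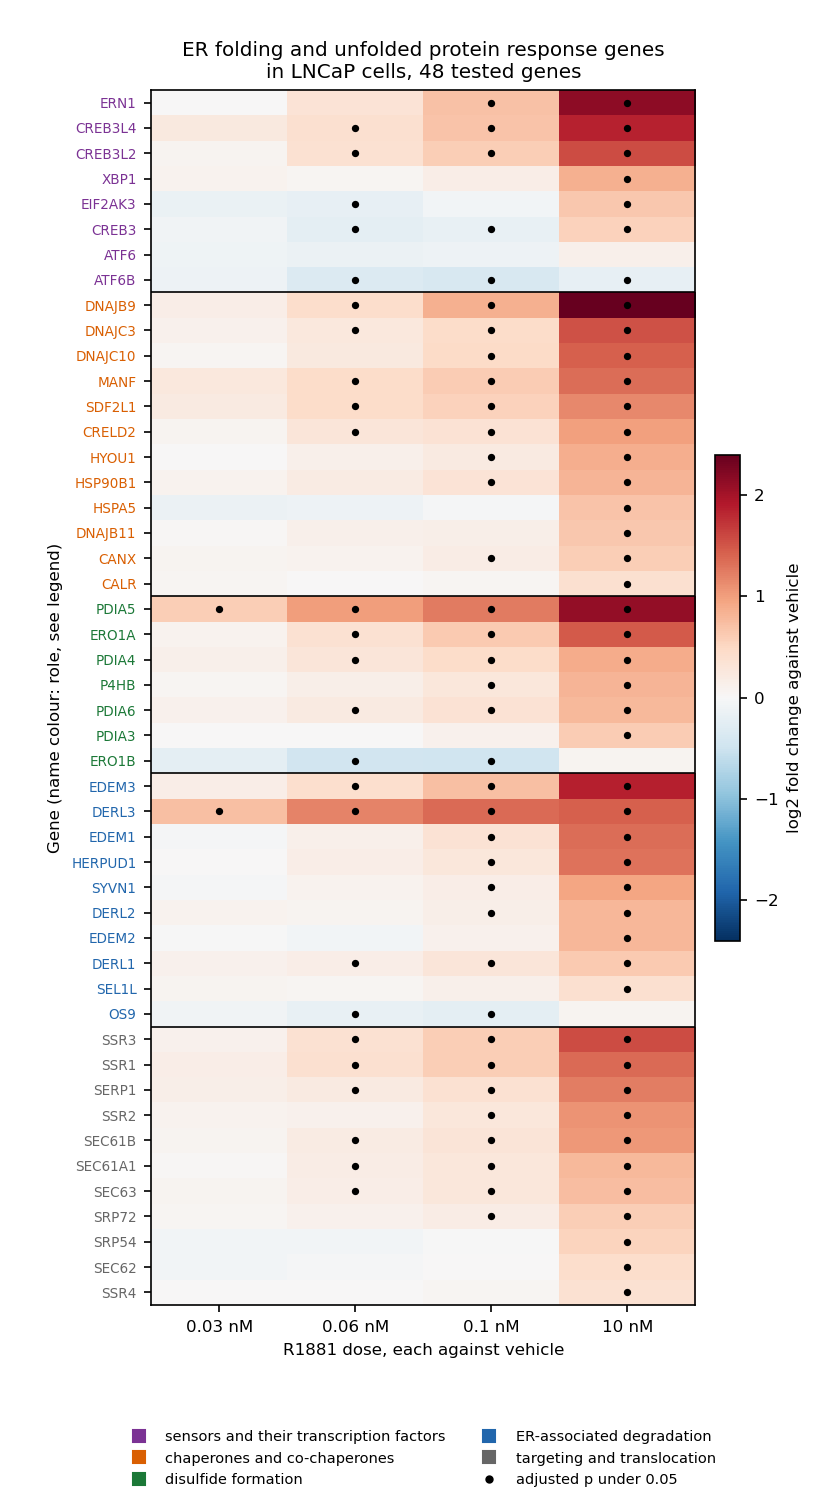
Log2 fold change of the 48 tested members (rows, by role) at each R1881 dose against vehicle (columns), with n = 3 libraries per group. Dots mark the 2, 25, 36 and 45 members called at 0.03, 0.06, 0.1 and 10 nM, and the darkest cells are DNAJB9, ERN1 and PDIA5 at 10 nM.

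Most of the response came between 0.1 and 10 nM, which is also the widest step between R1881 doses, with no dose in between. Set directly against each other, 47 of 48 members were higher at 10 nM than at 0.1 nM and none lower (background 20.6% higher and 19.5% lower, 40.1% in all), and 6 were at least 2-fold higher (background 2.86%). The 0 lower by edgeR was 0 at an unadjusted p under 0.05 and 0 by DESeq2. DERL3, a derlin of the degradation channel, was the exception, with a log2 difference of 0.08 (95% interval -0.24 to 0.40, adjusted p = 0.707). Of the 44 members that rose at 10 nM, the log2 change at 0.1 nM was a median of 31.6% of that at 10 nM (range -31.8% to 94.4%). It passed 50% in DERL3 (94.4%), PDIA5 (59.2%) and PDIA4 (50.4%). These members were selected on the 10 nM change that is also the divisor, which favours a low share. No such share was computed for all genes. By the first dose at which a member was called, in either direction, 2 members entered at 0.03 nM, 23 at 0.06 nM, 12 at 0.1 nM and 10 at 10 nM. The 23 include EIF2AK3, ATF6B, CREB3, ERO1B and OS9, which were called lower at 0.06 nM. Of all genes 8.63%, 31.2%, 42.1% and 57.6% were called in either direction at these doses. Their shares by first dose were not computed.

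Levels are CPM, counts scaled for depth and library composition, and are listed for libraries 2, 3 and 4 of each group. Log2 fold changes carry their SE, and adjusted p-values are from edgeR over all tested genes. In bulk RNA a change in the share of cells that express a gene cannot be told apart from a change in RNA per cell.

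The 3 sensors responded unequally. ERN1, the kinase and nuclease that splices XBP1, had 35.4, 46.9 and 37.8 CPM in vehicle, 36.6, 47.5 and 37.1 at 0.03 nM, 45.6, 58.5 and 46.3 at 0.06 nM, 57.6, 76.3 and 61.5 at 0.1 nM and 165, 180.1 and 185 at 10 nM. Every 10 nM library stood above every other library, and library 3 was the highest of its group except at 10 nM. The rise was 2.14 ± 0.13 at 10 nM (adjusted p = 1.13e-10) and 0.70 ± 0.13 at 0.1 nM, and 1.44 ± 0.13 at 10 nM against 0.1 nM (adjusted p = 5.51e-08). At 0.06 nM the change of 0.32 ± 0.13 was not called (adjusted p = 0.0653), but it was in 7 of 23 alternatives, among them the replicate block (adjusted p = 0.000176) and leaving out vehicle replicate 3 (adjusted p = 0.0138), 0.03 nM replicate 3 (0.0428) or 0.1 nM replicate 3 (0.0411). The adjusted p ran from 5.49e-05 to 0.294 over all alternatives.

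EIF2AK3, the kinase PERK, dipped before it rose. Its libraries held 48.65, 51.1 and 47.6 CPM in vehicle, 45.5, 44.75 and 42.2 at 0.03 nM, 41.0, 45.9 and 42.0 at 0.06 nM, 45.35, 48.2 and 47.7 at 0.1 nM and 73.8, 76.2 and 79.9 at 10 nM. All 0.06 nM libraries were below all vehicle libraries, and all 10 nM libraries were above them. It fell by 0.19 ± 0.06 at 0.06 nM (adjusted p = 0.0123) and rose by 0.64 ± 0.05 at 10 nM (adjusted p = 1.38e-08). The fall was lost without vehicle replicate 3 (-0.16, adjusted p = 0.0576), 0.06 nM replicate 2 (-0.16, 0.0771) or 0.06 nM replicate 4 (-0.18, 0.0531). At 0.03 nM the change of -0.155 (adjusted p = 0.0961) was called lower with the replicate block (adjusted p = 0.03), the only 1 of 23 alternatives to do so.

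ATF6, the sensor that is itself cleaved into a transcription factor, changed least of the 3 at 10 nM. It read 70.3, 82.5 and 76.1 CPM in vehicle, 72.1, 72.5 and 69.4 at 0.03 nM, 66.5, 74.2 and 67.0 at 0.06 nM, 68.1, 71.6 and 69.3 at 0.1 nM and 83.3, 83.1 and 81.65 at 10 nM. The 10 nM libraries overlapped vehicle but lay above all 0.1 nM libraries. Against vehicle the difference at 10 nM was 0.12 ± 0.06 (95% interval -0.01 to 0.24, adjusted p = 0.0941), against 0.1 nM it was 0.25 ± 0.06 (adjusted p = 0.00212). With the replicate block ATF6 was called lower at 0.06 and 0.1 nM (-0.14 and -0.13, adjusted p = 0.0184 and 0.0224) and higher at 10 nM (0.12, adjusted p = 0.0294). Over the 23 alternatives ATF6 was called in 5 at 0.06 nM, 4 at 0.1 nM and 3 at 10 nM, and the adjusted p ran from 0.0183 to 0.346, 0.00783 to 0.426 and 0.0138 to 0.426. Single libraries that made the call were vehicle replicate 2 (-0.20 at 0.06 nM and -0.19 at 0.1 nM without it), 0.06 nM replicate 3 (-0.19 at 0.06 nM) and vehicle replicate 3 (0.17 at 10 nM). The difference from 0.1 nM was not called with library totals alone (0.095, adjusted p = 0.152).

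ATF6B, its paralog, was the member that fell at 10 nM. It had 27.3, 31.5 and 30.7 CPM in vehicle, 26.5, 29.1 and 27.1 at 0.03 nM, 22.7, 25.2 and 23.9 at 0.06 nM, 21.6, 23.8 and 23 at 0.1 nM and 26.0, 26.0 and 25.8 at 10 nM. The lowest values were at 0.1 nM, and the 10 nM libraries fell between that group and vehicle without overlapping either. It fell by 0.39 ± 0.07 at 0.1 nM (adjusted p = 0.00011) and by 0.20 ± 0.06 at 10 nM (adjusted p = 0.012), a call that was lost in 1 of 23 alternatives, without the 5 libraries numbered 3 (-0.17, adjusted p = 0.052). ATF6B shares exon sequence on the same strand with TNXB, which had 0.331 CPM at 10 nM and 0.602 in vehicle.

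XBP1, the transcription factor made after ERN1 splicing, moved only at the high dose. Libraries 2, 3 and 4 had 119, 144 and 138 CPM in vehicle, 132, 142 and 149.9 at 0.03 nM, 126, 145 and 144 at 0.06 nM, 140.3, 148 and 162 at 0.1 nM and 233, 227 and 263.5 at 10 nM. All 10 nM values were above all others, while the lower doses overlapped vehicle. It rose by 0.85 ± 0.08 at 10 nM (adjusted p = 6.34e-08). At 0.1 nM the change of 0.17 was not called (adjusted p = 0.112), but it was with the replicate block (adjusted p = 0.00749), without the 5 libraries numbered 3 (0.25, adjusted p = 0.0316) and without vehicle replicate 3 (0.23, adjusted p = 0.0441), with a range of 0.00749 to 0.439 over the 23 alternatives. Gene counts do not separate spliced from unspliced XBP1.

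The remaining transcription factors are ER-tethered relatives of ATF6. CREB3L4, abundant in prostate, had 62.25, 60.4 and 66.3 CPM in vehicle, 66.1, 71.7 and 84.3 at 0.03 nM, 78.1, 82.5 and 87.4 at 0.06 nM, 96.8, 97.5 and 109.9 at 0.1 nM and 219.7, 218 and 237 at 10 nM. From 0.06 nM on no library overlapped vehicle. It rose by 1.835 ± 0.08 at 10 nM (adjusted p = 1.2e-12), and CREB3L2, a factor known in secretory cell differentiation, by 1.56 ± 0.07 (2.95-fold, adjusted p = 8.58e-13). Exons of CREB3L4 overlap those of JTB and SLC39A1 on the opposite strand. JTB had 4.63 CPM at 10 nM and 4.55 in vehicle, and SLC39A1 2.42 and 2.09. CREB3 was lower at 0.06 nM (-0.225 ± 0.07, adjusted p = 0.0183, or 0.0864 without 0.06 nM replicate 4) and higher at 10 nM (0.55 ± 0.07, adjusted p = 1.64e-06). Over the 8 tested sensors and factors 2 rose and 3 fell at 0.06 nM, 3 rose and 2 fell at 0.1 nM, and 6 rose and 1 fell at 10 nM (all genes 16.9% and 14.3%, 21.5% and 20.6%, and 29.3% and 28.3%). The 3 that fell at 0.06 nM became 1 without 0.06 nM replicate 4, and the 2 at 0.1 nM became 1 in most alternatives, CREB3 losing its call in 17 of 23.

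**Figure D2:**
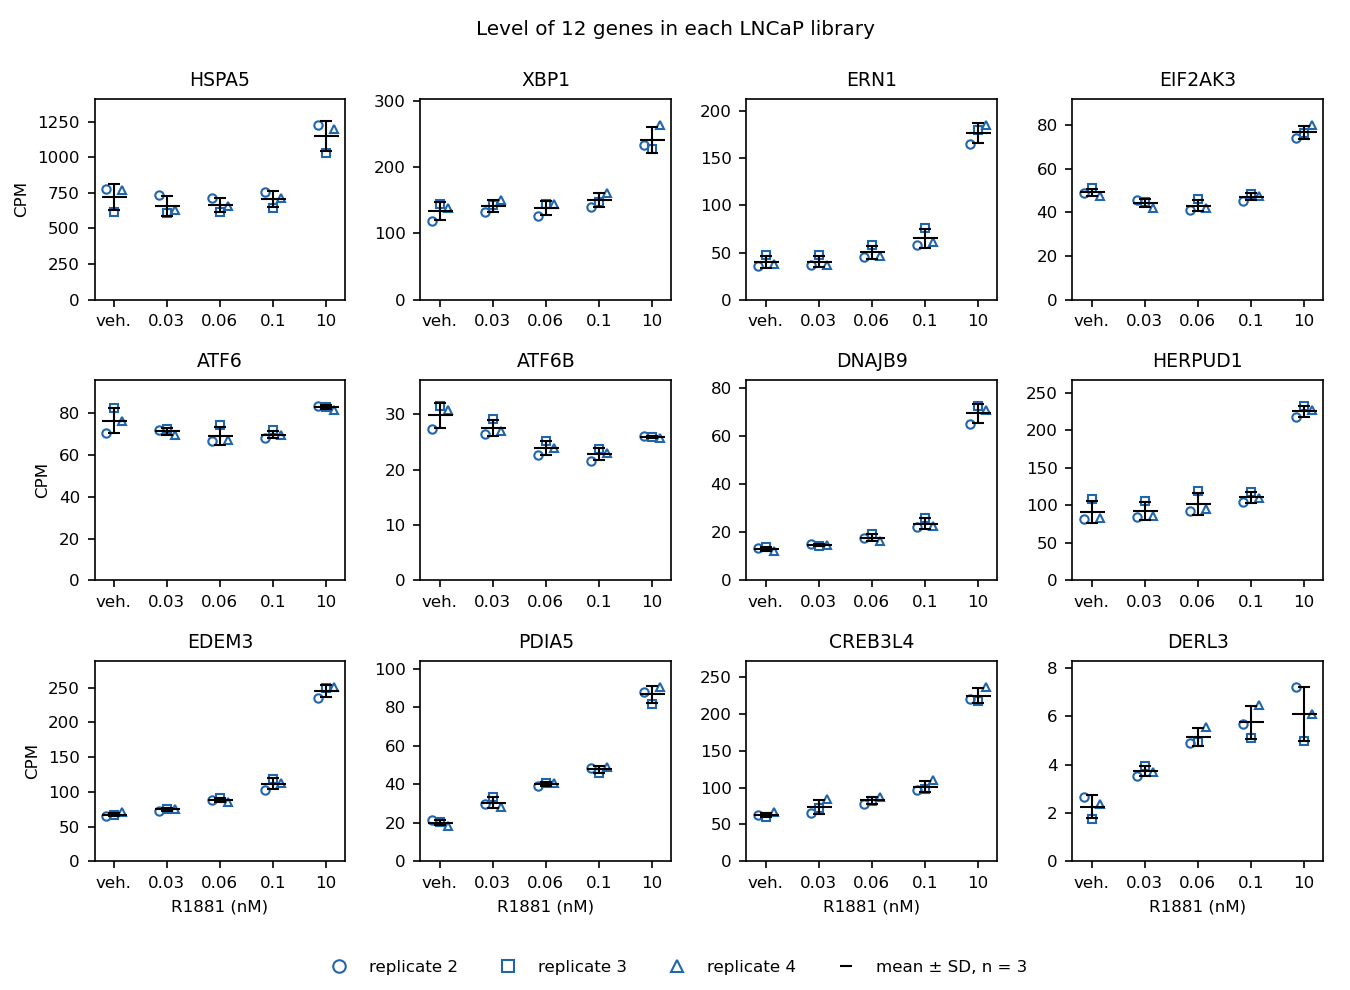
Level in CPM (vertical axes, from 0) of 12 members in each library by R1881 dose in nM, with replicates 2, 3 and 4 as separate symbols and the mean ± SD of n = 3 in black. In HSPA5, XBP1, ERN1, EIF2AK3, DNAJB9, HERPUD1, EDEM3, PDIA5 and CREB3L4 the 10 nM libraries stand above all others; ATF6, ATF6B and DERL3 are the exceptions.

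All 12 chaperones and co-chaperones rose at 10 nM, beside 29.3% of all genes. None was called lower at any dose by edgeR, nor would any be at an unadjusted p under 0.05. HSPA5, the main Hsp70 of the ER, had 776, 617 and 770.4 CPM in vehicle, 735, 608 and 629 at 0.03 nM, 714, 616 and 656 at 0.06 nM, 758, 643.5 and 714 at 0.1 nM and 1225, 1032 and 1195 at 10 nM. Library 3 was the lowest of all 5 groups, the 4 lower groups overlapped, and every 10 nM library was above them. HSPA5 rose by 0.67 ± 0.10 at 10 nM (1.60-fold, adjusted p = 1.07e-05), against differences of -0.13, -0.12 and -0.03 at 0.03, 0.06 and 0.1 nM that were not called (adjusted p = 0.47, 0.374 and 0.818). HSPA5 lies on chromosome 9 from 125234853 to 125241330 (minus strand, GENCODE 29 on GRCh38).

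DNAJB9, a co-chaperone that recruits HSPA5 to ERN1, showed the largest rise of the set. Its libraries had 13.5, 14.0 and 12.3 CPM in vehicle, 15.1, 14.4 and 14.8 at 0.03 nM, 17.9, 19.35 and 16.35 at 0.06 nM, 22.4, 26.2 and 22.55 at 0.1 nM and 65.2, 72.7 and 71.2 at 10 nM. Each step from 0.03 nM up left no overlap with the groups below it. The log2 change was 0.16 ± 0.08 at 0.03 nM, which was not called (adjusted p = 0.261), 0.43 ± 0.08 at 0.06 nM, 0.84 ± 0.08 at 0.1 nM and 2.40 ± 0.08 at 10 nM (adjusted p = 2.83e-14). The gene (chromosome 7, 108569568 to 108574850, plus strand) overlaps exons of PNPLA8 and THAP5 on the opposite strand. PNPLA8 had 83.4 CPM at 10 nM and 36 in vehicle, and THAP5 58.5 and 35.4, so without the authors' strand setting, which the sources used here do not give, their reads cannot be told apart from those of DNAJB9.

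Several co-chaperones and small cofactors of HSPA5 had larger log2 changes than HSPA5 itself. DNAJC3, an inhibitor of EIF2AK3 and co-chaperone, rose by 1.53 ± 0.06 at 10 nM, DNAJC10, a reductase of the degradation pathway, by 1.44 ± 0.09, MANF, a secreted cofactor, by 1.35 ± 0.08, and SDF2L1 by 1.14 ± 0.08. CRELD2 rose by 0.98 ± 0.05, HYOU1, a nucleotide exchange factor, by 0.87 ± 0.06, HSP90B1, the Hsp90 of the ER, by 0.81 ± 0.09 and DNAJB11, a co-chaperone, by 0.655 ± 0.06. The lectin chaperones CANX and CALR rose by 0.58 ± 0.05 and 0.39 ± 0.08. CALR was the most abundant member per exon length in vehicle, at 527 ± 49.5 CPM per kb (SD, n = 3), ahead of HSPA5 at 184.5 ± 23.1 and HSP90B1 at 152 ± 19.8, and its rise was lost with library totals alone (0.18, adjusted p = 0.121). Of the 12, 5 were called higher at 0.06 nM and 9 at 0.1 nM, beside 16.9% and 21.5% of all genes. With library totals alone HSP90B1, HYOU1 and CANX lost their 0.1 nM calls (adjusted p = 0.0514, 0.0773 and 0.074).

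Disulfide enzymes held the member that responded earliest together with DERL3. PDIA5, a protein disulfide isomerase, had 21.3, 20.4 and 18.5 CPM in vehicle, 29.7, 33.5 and 27.9 at 0.03 nM, 39.0, 40.9 and 40.7 at 0.06 nM, 48.5, 45.65 and 49 at 0.1 nM and 87.8, 81.7 and 90.5 at 10 nM. No group overlapped another. The log2 change was 0.59 ± 0.07 at 0.03 nM (adjusted p = 3e-05), 1.0 ± 0.07 at 0.06 nM, 1.25 ± 0.07 at 0.1 nM and 2.11 ± 0.07 at 10 nM (adjusted p = 3.49e-14). PDIA5 shares exon sequence with SEC22A on the same strand, which had 14.1 CPM at 10 nM and 11.8 in vehicle.

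The other isomerases rose by 0.88 ± 0.08 (PDIA4), 0.81 ± 0.06 (P4HB), 0.78 ± 0.05 (PDIA6) and 0.61 ± 0.06 (PDIA3) at 10 nM. ERO1A and ERO1B, paralogous oxidases that reoxidise these isomerases, went apart. ERO1A rose by 0.37 ± 0.06 at 0.06 nM, 0.635 ± 0.06 at 0.1 nM and 1.47 ± 0.06 at 10 nM (adjusted p = 4.89e-13). ERO1B had 11, 12.6 and 13 CPM in vehicle, 10.05, 10.0 and 11.1 at 0.03 nM, 7.90, 10.3 and 8.36 at 0.06 nM, 7.74, 9.75 and 8.55 at 0.1 nM and 11.5, 14.1 and 12.5 at 10 nM. All of its 0.06 and 0.1 nM libraries were below vehicle, and its 10 nM libraries overlapped vehicle. It fell by 0.47 ± 0.11 at 0.06 nM and fell by 0.485 ± 0.11 at 0.1 nM (adjusted p = 0.0019), was 0.07 from vehicle at 10 nM (95% interval -0.175 to 0.31, adjusted p = 0.627), and was 0.55 ± 0.11 higher at 10 nM than at 0.1 nM (adjusted p = 0.000639).

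ER-associated degradation, which sends misfolded proteins to the proteasome, had 9 of 10 members higher at 10 nM, beside 29.3% of all genes. HERPUD1, a scaffold of the ligase complex, had 82.1, 108 and 83.5 CPM in vehicle, 85.1, 106 and 85.65 at 0.03 nM, 92, 119 and 94.9 at 0.06 nM, 104, 118 and 109.8 at 0.1 nM and 218, 232 and 227 at 10 nM. Library 3 was the highest of every group, and only the 10 nM libraries stood clear of vehicle. HERPUD1 rose by 1.305 ± 0.11 at 10 nM (adjusted p = 1.15e-08). Its call at 0.1 nM (0.28, adjusted p = 0.049) was lost in 12 of 23 alternatives, 10 of which left out a single library, including each of the 3 at 0.1 nM, and the adjusted p ran from 1.25e-05 to 0.19. At 0.06 nM the change of 0.16 (adjusted p = 0.306) was called with the replicate block (adjusted p = 0.0252), without the 5 libraries numbered 3 (0.18, adjusted p = 0.0132) and without vehicle replicate 3 (0.30, adjusted p = 0.0379).

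EDEM3, which trims mannose from misfolded glycoproteins, had 65.4, 66.3 and 70.4 CPM in vehicle, 72.8, 75.8 and 75.9 at 0.03 nM, 88.3, 91.5 and 85.9 at 0.06 nM, 103, 119 and 112 at 0.1 nM and 235, 249.5 and 251 at 10 nM. The groups followed the dose with no overlap. It rose by 0.40 ± 0.06 at 0.06 nM, 0.73 ± 0.06 at 0.1 nM and 1.86 ± 0.06 at 10 nM (adjusted p = 1.12e-14), and at 0.03 nM the change of 0.15 was called only with the replicate block (adjusted p = 0.0225, against 0.107). Its relatives EDEM1 and EDEM2 rose by 1.34 ± 0.08 and 0.79 ± 0.09 at 10 nM. The ligase SYVN1 (HRD1) rose by 0.95 ± 0.06, and its partner SEL1L by 0.39 ± 0.06. SYVN1, with means of 114 CPM at 10 nM and 59.2 in vehicle, shares exon sequence with FAU on the same strand (109 and 101). It overlaps MRPL49 on the opposite strand (185 and 134). Without the strand setting MRPL49 reads cannot be told apart from those of SYVN1.

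DERL3 reached most of its change at the low doses. It was the least abundant tested member, with 2.67, 1.73 and 2.35 CPM in vehicle, 3.54, 3.95 and 3.68 at 0.03 nM, 4.915, 4.94 and 5.56 at 0.06 nM, 5.70, 5.12 and 6.47 at 0.1 nM and 7.22, 4.98 and 6.10 at 10 nM. All dosed libraries were above vehicle, and the 10 nM and 0.1 nM groups overlapped. The log2 change was 0.72 ± 0.16 at 0.03 nM (adjusted p = 0.00921), which was lost without vehicle replicate 3 (0.56, adjusted p = 0.0521), 1.19 ± 0.16 at 0.06 nM, 1.35 ± 0.16 at 0.1 nM and 1.43 ± 0.16 at 10 nM. DERL3 lies opposite SMARCB1, which had 94.7 CPM at 10 nM and 90 in vehicle. DERL1 and DERL2, by comparison, rose by 0.63 ± 0.04 and 0.80 ± 0.06 at 10 nM, and were 0.34 ± 0.04 and 0.66 ± 0.06 higher at 10 nM than at 0.1 nM. Whether the dose courses of the 3 derlins differ was not tested.

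OS9, a lectin that delivers glycoproteins to SEL1L, had 176, 179 and 184 CPM in vehicle, 169.7, 178 and 159 at 0.03 nM, 153, 161 and 161 at 0.06 nM, 156, 154 and 150.5 at 0.1 nM and 188, 181 and 194 at 10 nM. Its 0.06 and 0.1 nM libraries were all below vehicle, and its 10 nM libraries overlapped vehicle. It fell by 0.18 ± 0.05 at 0.06 nM (adjusted p = 0.00845, or 0.0532 without 0.06 nM replicate 2) and by 0.23 ± 0.05 at 0.1 nM (adjusted p = 0.00113), and was 0.29 ± 0.05 higher at 10 nM than at 0.1 nM (adjusted p = 0.000112). The difference between 10 nM and vehicle was 0.06 (95% interval -0.04 to 0.17, adjusted p = 0.277), and it turned to -0.14 with library totals alone (adjusted p = 0.016). DERL3, OS9, ERO1B and CREB3 were singled out after their values were seen.

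OS9, ERO1B, ATF6B and CREB3 were the 4 members called lower at 0.1 nM and higher at 10 nM than at 0.1 nM. Both calls rest on the same 0.1 nM libraries, so a low value there enters both. At 10 nM 47 of 48 members were higher than at 0.1 nM in any case. Of all genes 20.6% were lower at 0.1 nM and 20.6% higher at 10 nM than at 0.1 nM. The share with both calls was not computed. CREB3 had 39.1, 38.2 and 38.7 CPM in vehicle, 35.4, 33.7 and 39.4 at 0.03 nM, 34.2, 33.4 and 31.55 at 0.06 nM, 36.1, 31.2 and 35.5 at 0.1 nM and 58.2, 52.5 and 58.8 at 10 nM. Its 0.1 nM libraries were all below vehicle and its 10 nM libraries all above. Its exons overlap those of GBA2 and TLN1 on the opposite strand. GBA2 had 135 CPM at 10 nM and 97.9 in vehicle, and TLN1 302 and 264. Without the strand setting their reads cannot be told apart from those of CREB3. The 0.1 nM call of CREB3 (-0.17, adjusted p = 0.0494) was lost in 17 of 23 alternatives, DESeq2 (adjusted p = 0.0756) and leaving out nearly any single library among them, and the adjusted p ran from 0.0108 to 0.243. The higher level of ATF6B at 10 nM than at 0.1 nM (0.185, adjusted p = 0.0312) was lost in 8, including without 0.1 nM replicate 2 (0.145, adjusted p = 0.144) or 4 (0.19, 0.0678) and without any 1 of the 10 nM libraries (0.17, 0.087 to 0.0971). CREB3 and EIF2AK3 were the members called in both directions against vehicle, and the share of all genes so called was not computed.

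All 11 members for targeting and translocation, which carry new proteins into the ER, rose at 10 nM, beside 29.3% of all genes. The translocon-associated protein subunits SSR3, SSR1 and SSR2 rose by 1.56 ± 0.05, 1.362 ± 0.05 and 1.07 ± 0.07, and SSR4 by 0.36 ± 0.06. SERP1, a small protein that stabilises membrane proteins at the channel, rose by 1.22 ± 0.07. Of the channel itself SEC61B rose by 1.03 ± 0.06 and SEC61A1 by 0.78 ± 0.06, and its partners SEC63 and SEC62 by 0.74 ± 0.06 and 0.42 ± 0.07. SRP72 and SRP54 of the signal recognition particle rose by 0.59 ± 0.04 and 0.535 ± 0.05. Adjusted p at 10 nM ran from 5.64e-14 for SSR3 to 3.91e-05 for SEC62, and 6 of the 11 were called higher at 0.06 nM, beside 16.9% of all genes. Those 6 became 2 without vehicle replicate 4 or without 0.06 nM replicate 3, when SEC61A1, SEC61B, SEC63 and SERP1 lost their calls.

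**Figure D3:**
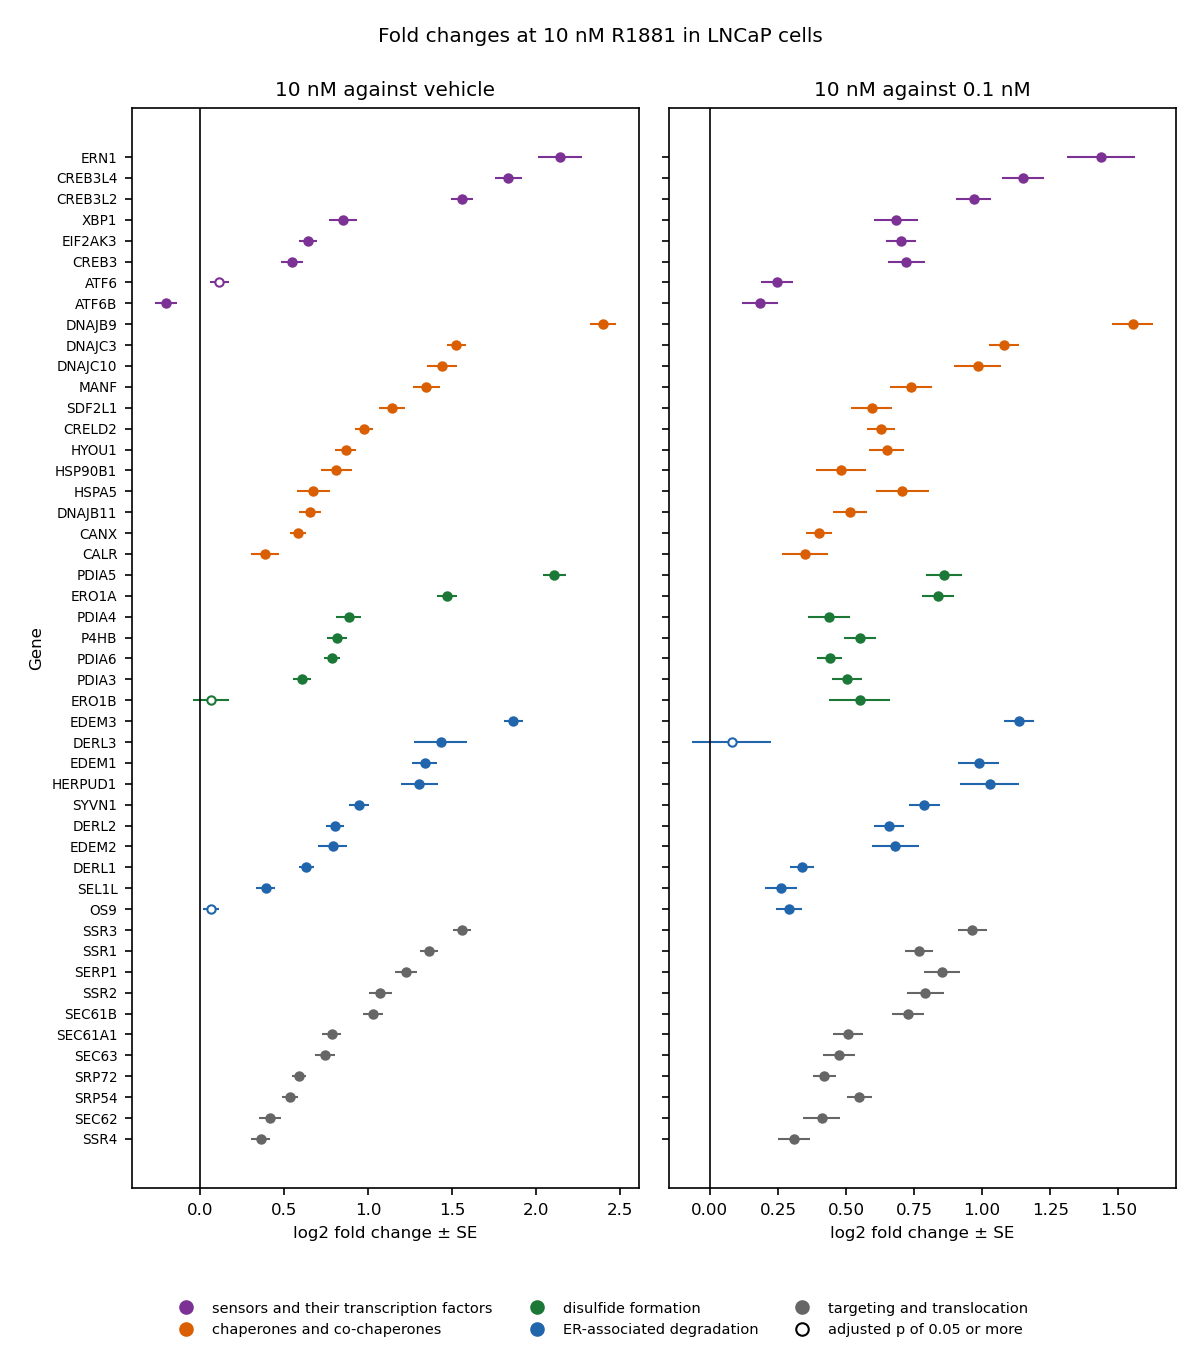
Log2 fold change ± SE (horizontal axes) of the 48 tested members at 10 nM against vehicle (left) and against 0.1 nM (right), n = 3 libraries per group, coloured by role, with open symbols for adjusted p of 0.05 or more. Only ATF6B lies below 0 on the left, no member does on the right, and DERL3 is open on the right.

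Most genes of 5 further ER lists also rose at 10 nM. Of 12 oligosaccharyltransferase subunits, which attach glycans, 11 rose at 10 nM, led by OSTC (1.16 ± 0.05), STT3A (0.99 ± 0.06) and RPN1 (0.85 ± 0.05). Of 5 signal peptidase subunits 4 rose, with SPCS3 at 1.67 ± 0.08 and SEC11C at 1.37 ± 0.09. Of 8 other translocation genes 6 rose, SEC61G by 1.18 ± 0.06 and SRPRB by 0.94 ± 0.05. Of 16 other folding genes 12 rose and 2 fell, with the thiol protein ERP44 at 0.97 ± 0.05 and the prolyl isomerase PPIB at 0.97 ± 0.06, and of 13 other degradation genes 11 rose, UBE2J1, a ubiquitin-conjugating enzyme, by 1.94 ± 0.12. These counts are sensitive to scaling. Library totals alone gave 6 of 16 higher and 2 lower, and 6 of 13 higher and 2 lower, in the last 2 lists. The signal peptidase list then had 3 higher and 1 lower, and the other translocation list 6 and 1. Of all genes 16.7% were higher and 43.4% lower in that scaling.

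Of 14 genes of the ATF4 and CHOP arm, downstream of EIF2AK3, 2 rose and 4 fell at 10 nM, with a median of 0.06. This balance rested on vehicle replicate 3, without which 5 were higher and 2 lower with a median of 0.31, and without the 5 libraries numbered 3 it was 6 and 3 with a median of 0.295. VLDLR, a lipoprotein receptor, rose by 2.09 ± 0.09 and ATF3, a stress-induced transcription factor, by 0.825 ± 0.10, and SESN2 fell by 0.94 ± 0.09. ATF4 itself had 262, 284 and 304 CPM at 10 nM and 229.5, 335.5 and 244 in vehicle (0.07 ± 0.13, adjusted p = 0.664). DDIT3, which encodes CHOP, had 7.20, 9.88 and 8.50 CPM at 10 nM and 9.87, 15.4 and 9.53 in vehicle (-0.44 ± 0.19, adjusted p = 0.0547), and it was called lower at 0.1 nM (-0.73 ± 0.19, adjusted p = 0.00511). The 10 nM and vehicle libraries overlapped in both genes, which were named after their values were seen.

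Cytosolic and mitochondrial heat shock genes, a folding response outside the ER, had 4 of 11 higher and 1 lower at 10 nM, with BAG3 at 0.53 ± 0.07, HSPE1 at 0.38 ± 0.10 and HSPD1 at 0.23 ± 0.05. The HSPE1 and HSPD1 calls were lost with library totals alone (0.17 and 0.02, adjusted p = 0.128 and 0.748), when 1 of the 11 was higher and 3 lower. With the replicate block 7 were higher and 1 lower, and without vehicle replicate 2 the gene called lower lost its call. The background for these lists is again 29.3% higher and 28.3% lower. No test compared the lists with each other.

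**Figure D4:**
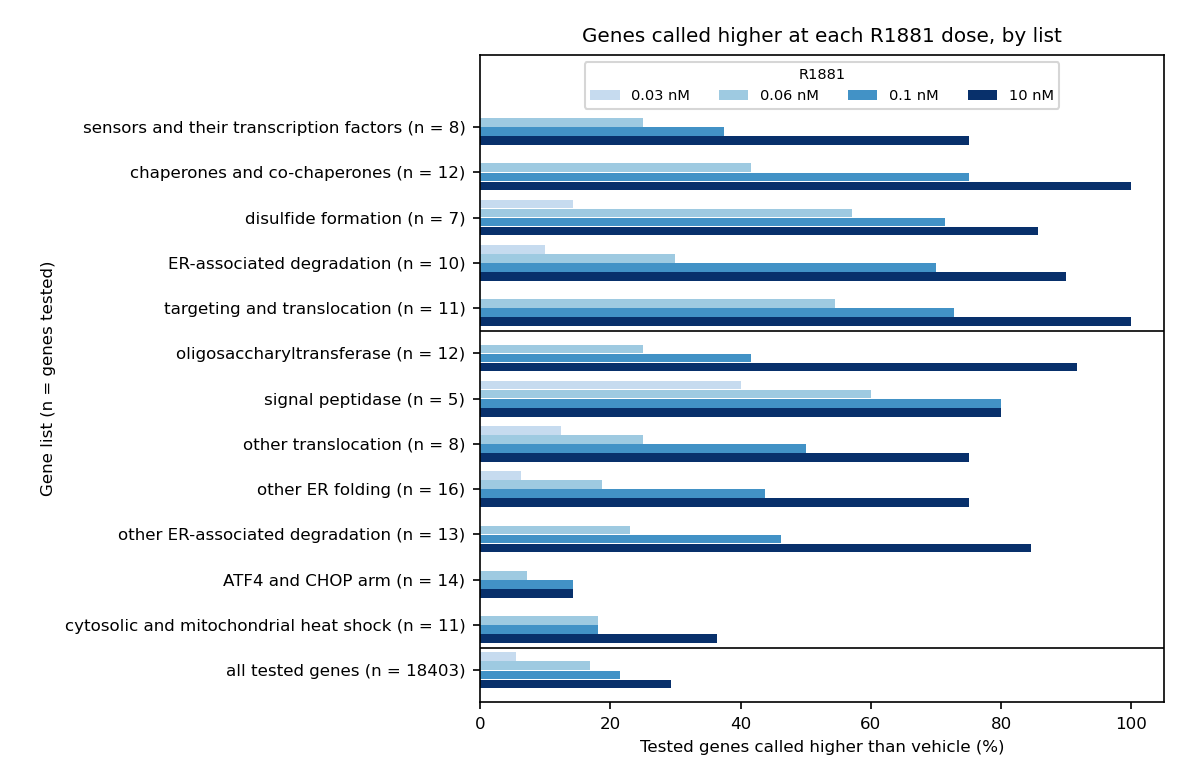
Percent of tested genes called higher than vehicle (horizontal axis, from 0) at each R1881 dose for the 5 role groups of the set (top), 7 further lists (middle) and all 18403 tested genes (bottom). At 10 nM the ATF4 and CHOP arm, with 2 of 14 (14.3%), lies below the 29.3% of all genes, but without vehicle replicate 3 it has 5 of 14 (35.7%) against 26.4%, and with library totals the heat shock list (9.09%) also lies below all genes (16.7%).

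Targets of the androgen receptor served as a check of the labels. KLK3, FKBP5 and TMPRSS2, the classical ones, were 5.23 ± 0.10, 5.40 ± 0.08 and 4.33 ± 0.23 higher at 10 nM on the log2 scale. The 7 luminal markers, all detected, summed to 8240 to 8650 CPM at 10 nM and 4300 to 4420 in vehicle, with 3 called higher and 4 lower. The 2 basal markers matched summed to 0.237 to 0.481 CPM at 10 nM and 0.0231 to 0.0444 in vehicle, and the 3 neuroendocrine markers to 3.23 to 3.90 CPM at 10 nM and 1.71 to 2.11 in vehicle. The 6 stromal, leukocyte and endothelial markers matched summed to 21.2 to 27.5 CPM at 10 nM and 42.5 to 56.5 in vehicle, mostly COL1A1, with PTPRC, CD3E and PECAM1 at 0 at 10 nM. The part of these markers in the results was not tested.

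Scaling bears on the level of every fold change. Mean TMM factors were 0.902 at 10 nM and 1.05 in vehicle, and library totals alone moved the median of all tested genes to -0.22 at 10 nM and gave 3073 genes higher and 7984 lower, against 5399 and 5209 with TMM factors. In that scaling 43 of 48 members were higher and 2 lower at 10 nM, on a background of 16.7% higher. Exons of 4 of the 49 members overlap those of a neighbour in the same orientation, and exons of 27 overlap a neighbour in the opposite one. Among the 19 tested members with no such overlap 17 rose and none fell at 10 nM, with a median log2 change of 1.03. These calls are from the fit with TMM factors, where 29.3% of all genes were higher and 28.3% lower. HSPA5, PDIA3, SEC63, SRP72, SSR4 and XBP1 have pseudogene copies in the table, with which the authors' counting could split reads.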

How the data were processed

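Per the labels' protocols, libraries were made with a stranded KAPA kit for messenger RNA. The submitters' processing notes name GRCh38 as the build and, as tools, STAR 2.7.8a, Trimmomatic 0.39 and DESeq2 1.36.0. The counter, annotation release and strand setting are not given in the sources used here. The deposited table holds the authors' raw counts per Ensembl gene. The 15 columns of a second table, for VCaP cells, match no label and were not used.

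Groups came from the labels. Symbols were matched by identifier (37731 of 37843 rows), and positions, overlaps and exon lengths are those of GENCODE 29. edgeR 4.0.16 in R 4.3.3 was fitted to all 15 libraries (TMM, filterByExpr, 1 mean per group, quasi-likelihood, Benjamini-Hochberg adjustment over 18403 genes, threshold 0.05). SE is the log2 fold change over the square root of F. CPM are counts over total times TMM factor. Counting precision is set by the totals. Chi-square over degrees of freedom between replicates of a group was 3.57 to 48.8, so none was a duplicate at sampling noise.

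Alternatives were RLE size factors, library totals, DESeq2 1.42.0, no or a stricter filter (1 CPM in 3 libraries, mean count of 20), the replicate block, only the compared libraries, leaving out the 5 numbered 3, and leaving out each library. Same-numbered libraries of compared groups deviated together (r of 0.156 to 0.556 over genes), so the number may pair the libraries. Over all 30 pairs, with groups not compared here, r was 0.081 to 0.556. Between compared libraries of unlike number r reached at most 0.196. The main fit did not use this pairing, and its SE and p-values leave it out. Only the replicate block took it in. On simulated data, the 10 nM comparison recovered 71.6% of changes of 0.5 on the log2 scale, 97.0% of 1 and 98.5% of 2, with 7 false calls of 185, and the 0.03 nM comparison 71.6%, 92.5% and 100% for those sizes, with 17 false calls of 193. Changes of these sizes were given to 67, 67 and 66 of 18403 genes, all above 1 CPM on average, up and down alike. No effect of the replicate number was simulated. In the data 57.6% of genes were called at 10 nM, so these rates need not hold there. Values of every library were given for 7 set genes and for members with the largest called changes at 10 nM, and up to 3 genes of smallest p from each further list were named. The members and lists were chosen with earlier results of these data known.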

Additional observations from a re-analysis of the deposited data

How the results depend on the processing

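Of 5520 recomputed member fold changes, 5365 kept direction and side of the threshold, 92 lost a call, 62 gained one and 1 reversed, OS9 at 10 nM (-0.14 with library totals). At 10 nM 43 of 45 member calls held in every alternative (ATF6B and CALR did not), and 43 of 47 did between 10 and 0.1 nM. At 0.03, 0.06 and 0.1 nM 1 of 2, 17 of 25 and 28 of 36 held. At 0.03 nM the members higher numbered 4 with no low-count filter, 5 with DESeq2 and 8 with the replicate block, which also called 1 lower; over all genes at 0.03 nM the block gave 1828 higher and 1367 lower, against 1007 and 581, and it moved no other count of all members by over 1.5 times. Further members called higher with it and not in the main analysis, some also in other alternatives, were CREB3L4 (0.23), MANF (0.25), SDF2L1, SSR1 and SERP1 at 0.03 nM, HSP90B1, DNAJC10, P4HB and EDEM1 at 0.06 nM, and DNAJB11 and SEL1L at 0.1 nM, and it changed no call between 10 and 0.1 nM. Members lower at 10 nM numbered 2 with library totals and 0 without the 5 libraries numbered 3. Leaving out 1 library at a time, the members higher were 1 to 4 for 0.03 nM, 16 to 23 for 0.06 nM, 29 to 32 for 0.1 nM, 44 to 45 for 10 nM and 46 to 47 for 10 against 0.1 nM, and the members lower 0 to 0, 3 to 6, 3 to 4, 1 to 1 and 0 to 0 in that order. Over all genes library totals gave 3148 higher and 4486 lower at 0.1 nM, against 3958 and 3787, and 2164 and 5994 for 10 against 0.1 nM, against 3787 and 3589, with a median shift of -0.17. Beyond what scaling and sample number change by construction, the causes were not tested. With 3 libraries per group, differences below a log2 of about 0.5 can be missed.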
